A study of Mus musculus with 6 samples.

Results

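The alpha-arrestins described here are 5 mouse genes, Arrdc1, Arrdc2, Arrdc3, Arrdc4 and Txnip, out of 19937 genes with a probe set of their own on the array. They were taken as a family by name, and the family was chosen by the measured log2 difference of Arrdc3, which was among the largest increases after 4EGI-1 in the comparison described here. The values of all 5 genes in that comparison are therefore given as a description and carry no test. Each gene had 1 probe set. A further alpha-arrestin gene, Arrdc5, was also measured and is given with the related genes.

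Polysomal RNA was measured in clone #483, a T-ALL line (T-cell acute lymphoblastic leukaemia) of strain C57BL6 mice. Group 4EGI-1 holds 3 samples of cells kept for 2 h in 100 µM 4EGI-1, a compound known to keep eIF4E, which holds the mRNA cap, from joining its scaffold eIF4G. The untreated group holds 3 samples, titled untreated, although the protocol names the solvent DMSO, so whether they received solvent is not settled. The design text calls the samples biological replicates, all of them from 1 clone, and the RNA of the polysome fractions of each gradient was pooled for 1 array.

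Alpha-arrestins are adaptor proteins with an arrestin fold. Most carry PPxY motifs at their C-terminal end, through which they bring ubiquitin ligases of the NEDD4 type to membrane proteins, which are then taken up and sorted. Txnip, the thioredoxin-interacting protein, also binds thioredoxin and lowers glucose uptake, and its transcription follows glucose through the factor MondoA and its partner Mlx.

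The labelled cell type was set against marker genes, as a description only, since brightness differs between probe sets. Of 12 T-cell markers 11 were measured, and all 11 lay above the median of the mean signals of all genes, with 7 above the 75th percentile. B-cell markers reached at most the 50.8th percentile (5 measured), myeloid markers the 52.8th (6 measured), erythroid markers the 57.0th (3 measured), and stromal and endothelial markers the 78.3rd (Pecam1, which blood cells also express; 6 measured). The ranges overlapped, since the T-cell marker Cd5 stood at the 53.8th percentile, so the percentiles do not separate the cell types. Of the 11 T-cell markers measured 5 were lower with 4EGI-1 and 0 higher (median log2 difference -0.19). Of all genes 11.5% were lower and 11.5% higher. That share is not matched for brightness, and the median T-cell marker stood at the 93.4th percentile of signal. The myeloid marker Cd68 was higher by 0.31 (adjusted p = 0.0176), and no other marker of the other cell types passed. The part of these markers in the values below was not tested. Across genes the correlation was 0.996 to 0.997 between samples of 1 group and 0.988 to 0.990 between samples of different groups. In such bulk samples fewer cells and less RNA per cell cannot be told apart, nor can a change in an mRNA's total amount and in its share on polysomes.

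Of the 5 alpha-arrestin genes, Arrdc3 alone stood apart between the groups. It was 3.96-fold higher on polysomes with 4EGI-1, while the other 4 differed by no more than 0.08 on the log2 scale. Of the 5, 1 (Arrdc3) was past the threshold of the fit across all genes (limma, Benjamini-Hochberg adjusted p under 0.05), as were 22.9% of all genes (11.5% of all genes higher, 11.5% lower). Arrdc3 was also the only one of the 5 whose groups did not overlap, against 37.9% of all genes. Since the family was chosen for Arrdc3 in this contrast, these counts only describe it.

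Arrdc3 encodes an adaptor that, in human cells, joins NEDD4 to the beta-2 adrenergic receptor and takes part in the turnover of integrin beta-4. Its log2 signal was 10.94, 10.94 and 10.96 in the 4EGI-1 samples, against 8.88, 8.84 and 9.17 in the untreated samples. All treated samples lay far above all untreated ones, with a gap of 1.77 between the lowest treated and the highest untreated value. The group means were 10.95 ± 0.01 with 4EGI-1 and 8.96 ± 0.18 without (SD, n = 3 each). The log2 difference was 1.99 ± 0.09 (SE), the 5th highest of the 19937 genes. The treated samples were nearly equal, and most of the spread of the gene came from untreated replicate 3, which was 0.20 above its group mean. Without that sample the difference was 2.09. Leaving out any other sample gave 1.92 to 1.99.

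**Figure D1:**
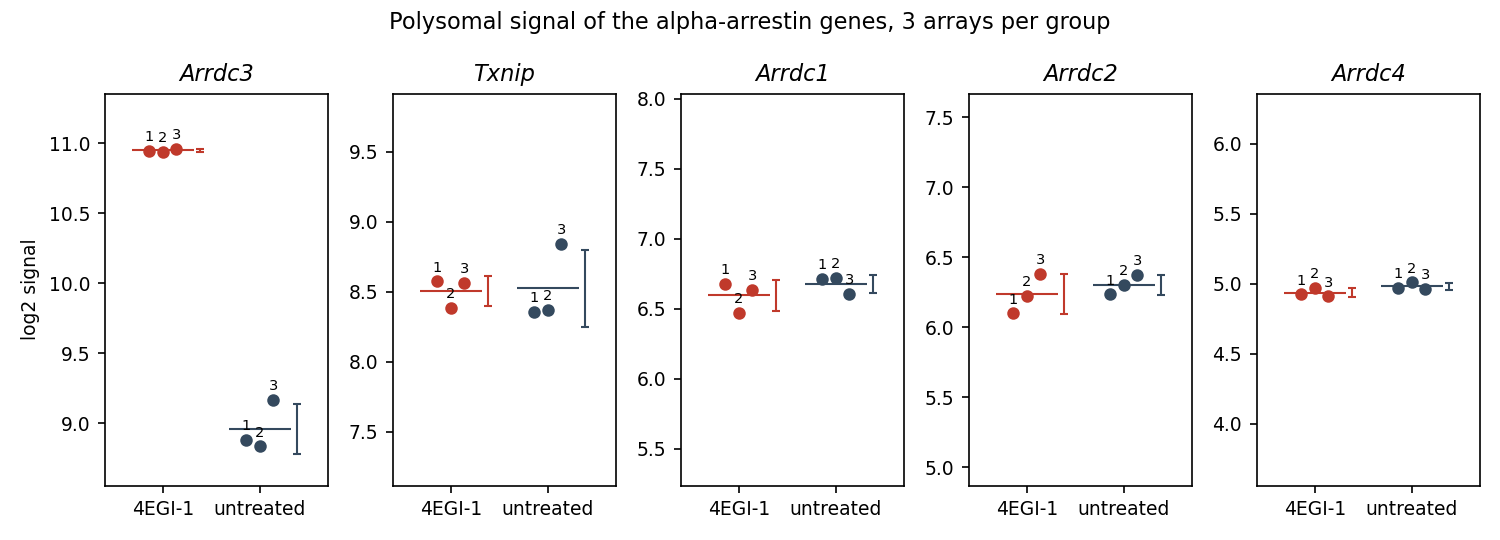
Log2 signal (y axis) of each alpha-arrestin gene in the 3 4EGI-1 samples (red, left) and the 3 untreated samples (dark blue, right), with numbers giving the replicate, lines the group means and bars 1 SD; every panel spans the same range of log2 units. Arrdc3 separates the groups (10.95 against 8.96), whereas the values of the other 4 genes overlap.

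Txnip, the family's regulator of thioredoxin and glucose uptake, did not separate the groups. Its log2 signal was 8.57, 8.38 and 8.56 in the 4EGI-1 samples, against 8.36, 8.37 and 8.84 in the untreated samples. The groups overlapped: untreated replicate 3 was the highest of the 6 samples and the other untreated samples the lowest. The means were 8.51 ± 0.11 with 4EGI-1 and 8.52 ± 0.28 without (SD, n = 3 each), and the log2 difference was -0.02 ± 0.13 (SE). The direction depended on single samples, since the difference was 0.14 without untreated replicate 3, 0.04 without 4EGI-1 replicate 2 and -0.10 without untreated replicate 1. The pooled SD of Txnip, 0.21, was larger than that of 93.2% of all genes, which limits what 3 samples per group can resolve for this gene.

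Arrdc4 is, with Txnip, a known target of MondoA in human and mouse cells, and its protein also limits glucose uptake. Its signal was low and flat, at 4.92, 4.97 and 4.91 with 4EGI-1, against 4.97, 5.01 and 4.96 without. 4EGI-1 replicate 2 lay among the untreated ones, so the groups overlapped. The log2 difference was -0.05 ± 0.06 (SE). Its mean signal stood at the 14th percentile of all genes. Detection calls were not used here, and whether these values lie above background was not tested.

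Arrdc1 encodes an adaptor that binds Tsg101 and drives the budding of small vesicles from the plasma membrane. Its log2 signal was 6.68, 6.47 and 6.63 with 4EGI-1, against 6.71, 6.72 and 6.60 without. The lowest value came from a treated sample and the highest from an untreated one, and the ranges overlapped. The log2 difference was -0.08 ± 0.08 (SE), between -0.13 and -0.02 when single samples were left out.

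Arrdc2, a less studied member of the family, had 6.10, 6.22 and 6.38 with 4EGI-1, against 6.23, 6.30 and 6.37 without. The treated samples spread on both sides of the untreated ones. The log2 difference was -0.07 ± 0.08 (SE). The mean signals of Arrdc1 and Arrdc2 stood at the 49.6th and 41.5th percentiles of all genes, those of Txnip and Arrdc3 at the 74.2nd and 87.6th. Brightness depends on each probe set's own sequences as well as on the transcript, so these percentiles do not rank the genes by amount.

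Among all genes the 4 other members lay in the middle of the differences. The differences of Arrdc1, Arrdc2, Arrdc4 and Txnip were at the 35.8th, 39.6th, 45.2nd and 52.1st percentiles, where the median of all genes was -0.03. Arrdc3 was above 99.98% of them.

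**Figure D2:**
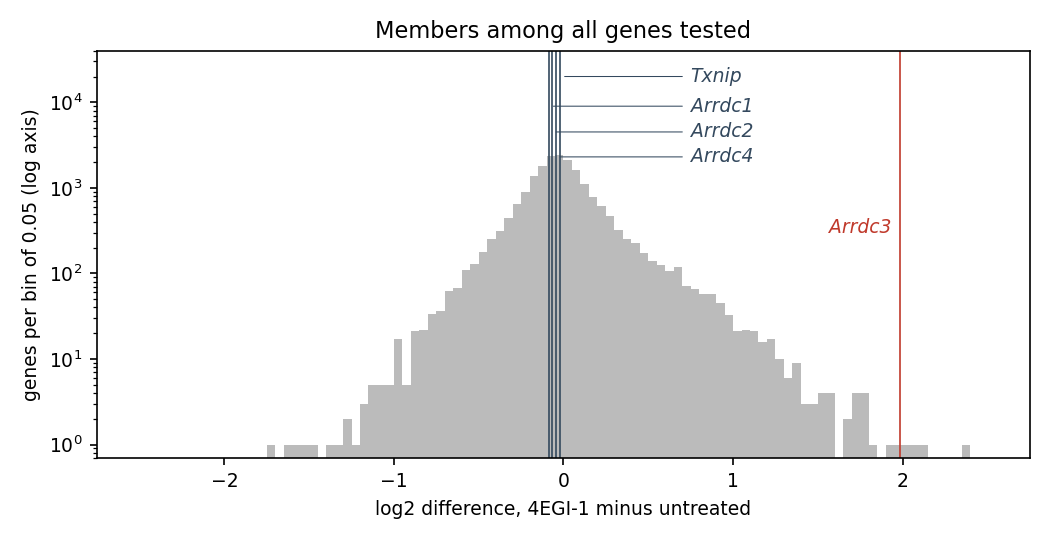
Histogram of the log2 differences (x axis, 4EGI-1 minus untreated) of all 19937 genes, with the number of genes per bin on a log y axis and vertical lines at the members. Arrdc3 (red) lies at 1.99 in the sparse right tail, and the other 4 members (dark blue) lie between -0.08 and -0.02 at the peak.

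Replicates of the same group also set the members apart. Untreated replicate 3 was above its group mean for Txnip (by 0.32), Arrdc3 (by 0.20) and Arrdc2 (by 0.07), and below it for Arrdc1 (-0.07) and Arrdc4 (-0.02). Arrdc4 varied least, with a pooled SD of 0.03, at the 2.67th percentile of all genes. The SD of Arrdc3 was 0.01 in treated and 0.18 in untreated samples, and that of Txnip 0.11 in treated and 0.28 in untreated samples, each from 3 values.

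Genes with a profile like a member's were found by the root mean square difference of the 6 log2 values, each gene centred on its own mean. No gene lay within 0.1 of Arrdc3. The 5 nearest were Lrrd1 (0.135), the amino acid transporter gene Slc7a7 (0.151), Cyp2c55 (0.153), the metallothionein gene Mt2 (0.158) and Zc3h6 (0.161). Their log2 differences ran from 1.73 to 2.05, so the likeness is mainly in the size of the increase. Flat profiles have many neighbours: within 0.1 of Arrdc4, Arrdc1, Arrdc2 and Txnip lay 7164, 4133, 2952 and 42 genes. The 3 nearest were Rasgrp4, Ppl and Col26a1 for Arrdc4, Mir140, Pmm2 and Spcs2 for Arrdc1, and Btbd3, Tekt3 and Fam89b for Arrdc2. For Txnip they were Capsl, Vmn1r51 and Yipf7, the nearest at 0.0567.

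The promoters of Arrdc3, Txnip and Arrdc4 are shown because the first is that of the gene that stood apart and the other 2 are those of the known glucose-responsive pair. All 5 members matched a RefSeq window of 250 bases before to 50 after a start site (GRCm38.p6), and the 250 bases before the start are printed 5′ to 3′ on the gene's strand. Arrdc3 has 3 such windows, of which the first is shown (chr13:80883134-80883383, plus strand). The others are at chr3:96557707-96557956 (plus strand, Txnip) and chr7:68749239-68749488 (minus strand, Arrdc4). Capitals mark the matches named after the sequences.
Arrdc3: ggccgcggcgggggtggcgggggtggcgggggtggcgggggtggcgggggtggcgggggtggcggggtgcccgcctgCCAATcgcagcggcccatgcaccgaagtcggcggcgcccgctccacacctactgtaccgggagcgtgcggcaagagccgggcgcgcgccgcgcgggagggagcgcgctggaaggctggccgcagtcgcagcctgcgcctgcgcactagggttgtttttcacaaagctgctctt
Txnip: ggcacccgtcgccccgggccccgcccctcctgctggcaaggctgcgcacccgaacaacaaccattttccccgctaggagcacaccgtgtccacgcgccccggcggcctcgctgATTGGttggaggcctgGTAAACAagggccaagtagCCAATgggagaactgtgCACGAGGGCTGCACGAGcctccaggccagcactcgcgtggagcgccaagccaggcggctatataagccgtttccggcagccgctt
Arrdc4: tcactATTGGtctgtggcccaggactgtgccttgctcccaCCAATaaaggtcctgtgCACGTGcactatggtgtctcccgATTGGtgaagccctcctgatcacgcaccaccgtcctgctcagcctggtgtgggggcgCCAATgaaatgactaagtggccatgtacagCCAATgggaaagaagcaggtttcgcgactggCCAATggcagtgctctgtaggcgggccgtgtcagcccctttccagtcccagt

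Matches were searched on both strands of the 300-base windows, and the share of all 32851 windows with a match is given beside each motif. Txnip held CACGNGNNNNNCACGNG, a pair of E-box-like sites like the carbohydrate response element bound by MondoA and Mlx, from base -85, read as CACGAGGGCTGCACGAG. Of all windows 0.0487% held it. Arrdc4 held the single E-box CACGTG (7.15% of windows) at base -193 and no such pair. This E-box can form part of the pair's letters, but the Txnip match holds none. CCAAT, the motif of the factor NF-Y (37.4% of windows), occurred 6 times in Arrdc4, and 0.0791% of windows hold 6 or more. It occurred 3 times in Arrdc2, 2 times in Txnip, 1 time in the first Arrdc3 window and 0 times in Arrdc1. Txnip also held GTAAACA, a FOXO-type motif (3.65%), at base -121. TGATGNAA, the core of the element bound by ATF4 with C/EBP proteins (3.97%), and TATAAA (13.6%) occurred in 0 of the members' windows, those of Arrdc3 included. Only the letters given were searched, so variants such as tatataag in the printed Txnip sequence are not counted. A match describes letters in a window and shows no binding.

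**Figure D3:**
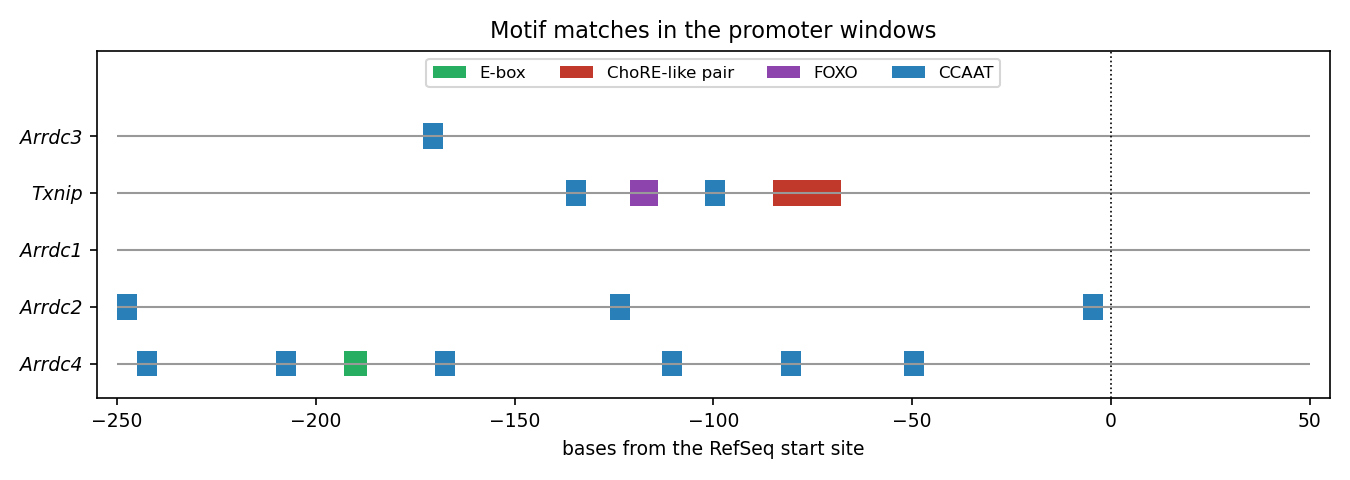
Positions of motif matches in the window of each member, in bases from the RefSeq start site (x axis, dotted line at the start), with the first of 3 windows drawn for Arrdc3. The ChoRE-like pair (carbohydrate response element, red) is in Txnip at -85, the E-box (green) in Arrdc4 at -193, and Arrdc4 holds 6 CCAAT matches (blue).

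The paired motif was searched in other genes after the Txnip match had been seen. It occurred in windows of 14 other genes, of which 9 were measured. Of these 9, 2 passed with higher values, 0 with lower ones and 7 did not pass, with a median log2 difference of 0.04. Those higher were Nfkb2, which encodes an NF-kB subunit, by 0.43 ± 0.07 (SE), and the dim gene Stpg4 by 0.28 ± 0.08. The adjusted p of Stpg4 was 0.0444, and between 0.0677 and 0.132 without any 1 of the 3 untreated samples or without 4EGI-1 replicate 2 or 3.

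Genes next to the members were also examined, since overlapping transcripts can share probes. Gm15441, a long non-coding RNA gene that overlaps Txnip in RefSeq, has its own probe set, with 5.09, 5.27 and 5.19 in the 4EGI-1 samples, against 4.96, 5.22 and 5.24 in the untreated samples. The groups overlapped, as for Txnip, and the log2 difference was 0.04 ± 0.09 (SE; adjusted p = 0.817). The genes on either side of Arrdc3 in the table, a pseudogene and a long non-coding RNA gene, have no probe set of their own here. Of the nearest genes beside the other members with a probe set, Ehmt1 next to Arrdc1, which encodes a histone methyltransferase, differed by 0.26 ± 0.07 (SE; adjusted p = 0.0241). That call was lost without untreated replicate 1 or 3 and without 4EGI-1 replicate 1 or 3 (adjusted p = 0.0654 to 0.0785). Zmynd19, Il12rb1, Kcnn1, Gm5334, Hjv and Polr3gl did not pass.

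Related genes were grouped in 9 lists. Of all genes 11.5% passed in each direction, but that share is not matched for brightness. The share among genes as bright as those listed is not given here. Whether a list holds more passing genes than equally bright genes was therefore not tested. The arrestin fold also occurs in genes other than the 5 members, both Arrdc5 of the same family and genes outside it. Of 9 such genes, all measured, 2 were higher with 4EGI-1, 0 lower and 7 did not pass (median log2 difference -0.06). The visual arrestin genes Arr3 and Sag were higher by 0.53 ± 0.11 and 0.42 ± 0.08 (SE), with adjusted p of 0.0107 and 0.00673. Both signals were below the median of all genes, at the 19.3rd and 39.9th percentiles. The filter at the median of the table left both out, and of the 6 genes it kept 0 were higher and 0 lower. Whether the values of Arr3 and Sag lie above background was not tested. The alpha-arrestin gene Arrdc5, which is not among the 5, differed by -0.23 ± 0.09 (adjusted p = 0.125). The beta-arrestin genes Arrb1 and Arrb2, whose proteins end receptor signalling, differed by -0.18 ± 0.09 and -0.08 ± 0.08, and neither passed. Vps26a, Vps26b and Vps26c, genes of endosomal sorting, and Rgp1 differed by -0.08 to -0.01 and did not pass.

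MondoA and its partner act on Txnip and Arrdc4, and the genes of both factors were lower with 4EGI-1. Mlxip, which encodes MondoA, had 8.86, 8.73 and 8.86 in the 4EGI-1 samples, against 9.17, 9.17 and 9.15 in the untreated samples. Mlx, which encodes its partner, had 7.92, 7.86 and 7.94 with 4EGI-1, against 8.38, 8.25 and 8.26 without. For both genes every treated sample lay below every untreated one. Mlxip fell by 0.35 ± 0.06 (SE; adjusted p = 0.00555) and Mlx by 0.39 ± 0.07 (adjusted p = 0.00324). Mlxipl, which encodes the related factor ChREBP, differed by 0.04 ± 0.07 (adjusted p = 0.774). Of 3 genes, 2 were thus lower, 0 higher and 1 did not pass (median -0.35).

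The proteins that alpha-arrestins recruit were described by their genes in the same way. Of 11 genes of NEDD4-type ligases and adaptors, 2 were higher, 1 lower and 8 did not pass (median 0.00). Nedd4l rose by 0.38 ± 0.07 (SE; adjusted p = 0.00687) and Smurf2 fell by 0.28 ± 0.06 (adjusted p = 0.00860). Nedd4 differed by 0.21 ± 0.06 (adjusted p = 0.0407), a call lost without any 1 of the 6 samples (adjusted p = 0.0742 to 0.117) and after centring the arrays (adjusted p = 0.0521). Of 27 genes of the ESCRT machinery, which sorts ubiquitinated cargo, 9 were lower, 1 higher and 17 did not pass (median -0.12). The filter at the table's median signal kept 26 of the 27, so the share of all genes is no matched yardstick for this list. Leaving out any 1 sample left 3 to 5 lower and 0 or 1 higher. Tsg101, the partner of Arrdc1, fell by 0.35 ± 0.08, Vps4a by 0.29 ± 0.06 and Vps36 by 0.27 ± 0.07, and Vps37a rose by 0.30 ± 0.07. Vps36 did not pass without untreated replicate 2 or 3 or 4EGI-1 replicate 1 or 2 (adjusted p = 0.0574 to 0.0730), nor did Vps37a without untreated replicate 1 or 3 or 4EGI-1 replicate 1 (0.0523 to 0.0635).

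Around Txnip, 14 of 16 genes of thioredoxins and their reductases, peroxiredoxins, sulfiredoxin and glutaredoxins were measured. All 14 were kept by the filter at the table's median signal, so for them too the share of all genes is not matched. Of these, 6 were lower, 0 higher and 8 did not pass (median -0.19). Those lower were peroxiredoxin and glutaredoxin genes. The thioredoxin genes Txn1 and Txn2, which differed by -0.01 and 0.003, and the reductase genes Txnrd1, Txnrd2 and Txnrd3 did not pass. Leaving out any 1 sample left 2 to 4 lower, and centring the arrays left 3, while a trended robust prior and the filter at the median of the table gave 9. Glrx, the glutaredoxin gene, fell by 0.88 ± 0.07 (SE; adjusted p = 0.000136), Glrx3 by 0.36 ± 0.07 and Prdx1 by 0.26 ± 0.06. Prdx1 did not pass without untreated replicate 1 or 4EGI-1 replicate 1 or 3 (adjusted p = 0.0523 to 0.0572). Of 15 genes of glucose uptake and phosphorylation 14 were measured, with 2 higher, 0 lower and 12 not past the test (median -0.03). Hk2, which encodes hexokinase 2, rose by 0.75 ± 0.08 (adjusted p = 0.000390), and Slc2a9 by 0.25 ± 0.06. The other Slc2a transporter genes measured, Slc2a1 among them (-0.12 ± 0.09, adjusted p = 0.405), did not pass. Slc2a9 did not pass without untreated replicate 1 or 2 or 4EGI-1 replicate 1 or 2 (adjusted p = 0.0589 to 0.0714).

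Of 9 receptors and other membrane proteins linked to alpha-arrestins 7 were measured, with 2 higher, 1 lower and 4 not past the test (median -0.05). Notch1 rose by 0.32 ± 0.06 (SE), Insr, the insulin receptor gene, by 0.28 ± 0.07, and Ifngr1 fell by 0.49 ± 0.07. Insr did not pass without untreated replicate 1 or 3 or 4EGI-1 replicate 1 or 2 (adjusted p = 0.0709 to 0.0844). Glucocorticoids and FOXO factors are known to raise Txnip. Of 11 genes of the glucocorticoid receptor and its induced genes 2 were higher, 2 lower and 7 did not pass (median 0.21); 4 were higher with a trended robust prior and under either filter on low signal. Dusp1 rose by 0.67 ± 0.07 and Tsc22d3 by 0.40 ± 0.10, while Sgk1 fell by 0.57 ± 0.07 and Zfp36 by 0.23 ± 0.06. Tsc22d3 did not pass without untreated replicate 1 or 3 or 4EGI-1 replicate 3 (adjusted p = 0.0605 to 0.0891), nor did Zfp36 without any 1 sample other than 4EGI-1 replicate 1 (0.0505 to 0.0841). Of 14 FOXO factor genes and FOXO-induced genes 13 were measured, with 5 lower, 0 higher and 8 not past the test (median -0.10); a trended robust prior and the filter at the median of the table gave 2 higher and 6 lower. Sesn1 fell by 0.72 ± 0.07, Sesn3 by 0.47 ± 0.06 and Bcl6 by 0.39 ± 0.07.

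**Figure D4:**
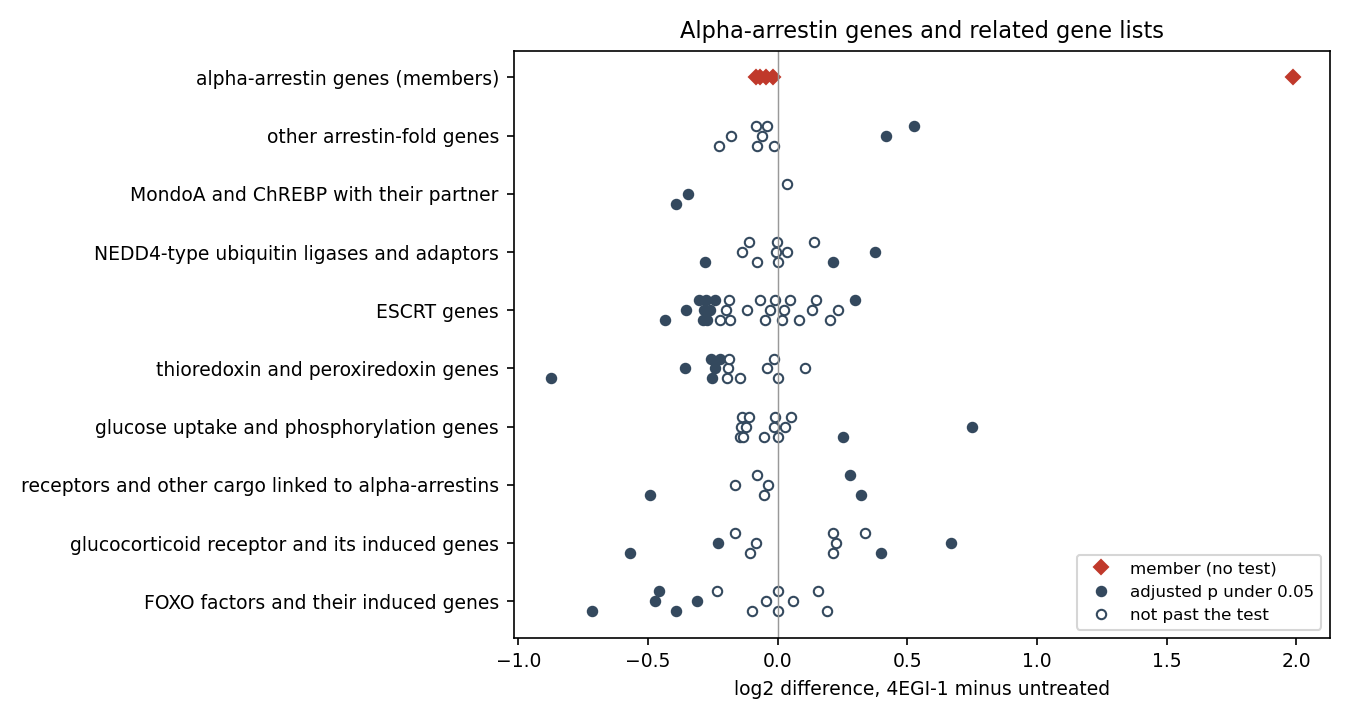
Log2 difference (x axis, 4EGI-1 minus untreated) of the 5 alpha-arrestin genes (red diamonds, no test) and of the genes of 9 related lists (circles, filled where the adjusted p was under 0.05). Arrdc3 at 1.99 lies to the right of every circle, the highest of which is Hk2 at 0.75, and Mlxip and Mlx lie to the left of 0.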

How the data were processed

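RNA of pooled polysome fractions was measured on 1 array per sample, 3 with 4EGI-1 and 3 untreated. The authors deposited log2 signals, 1 per probe set and sample, computed with RMA per the submitters' processing notes, whose version and settings are not stated. RMA brings the arrays to a common distribution, so a change is relative to the rest of the array. Median log2 signals per array were 6.38 to 6.43. The number of arrays limits the precision. The array annotation gave 1 gene symbol for 21640 of 34760 probe sets, several for 1321 (not used) and none for 11799 (unnamed here). Symbols of 21553 probe sets were updated by Entrez identifier through RefSeq (GRCm38.p6). The probe set with the highest mean was kept per symbol, which gave 19937 genes.

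Differences (4EGI-1 minus untreated) came from lmFit and eBayes of limma 3.58.1 (R 4.3.3), two-sided, with Benjamini-Hochberg adjustment over all genes. SE is the moderated standard error. Groups were taken from the sample titles. Replicates differed from each other and were each counted once (smallest median absolute difference 0.0927). The fit was tested on simulated data. The members and lists were chosen with earlier results of these data known. Named genes were the members, up to 3 list genes per direction with the smallest p among those that passed, all genes of the arrestin-fold and MondoA lists, and the nearest profiles; predicted genes were skipped. Neighbouring genes and genes with the promoter pair were added after the files were seen. Alternatives were the replicate block, leaving out each sample, a threshold of 0.01, array weights, a robust prior with a trend, median centring, quantile normalization, averaged or all probe sets, and filters on low signal (median or 25th percentile of the table).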

Additional observations from a re-analysis of the deposited data

How the results depend on the processing

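The difference of Arrdc3 was 1.96 to 1.99 under the alternatives that keep all samples and 1.92 to 2.09 when single samples were left out. The differences of Arrdc1, Arrdc2, Arrdc4 and Txnip moved by less than their replicate SD in every alternative that gave them, and that of Txnip took either sign, from -0.10 to 0.14. The filter at the median of the table left out Arrdc2 and Arrdc4, and that at the 25th percentile Arrdc4. An adjusted p under 0.01 gave 2736 genes in place of 4573, 1488 of them higher and 1248 lower. Leaving out single samples gave 3549 to 3892 genes, 1858 to 2081 higher and 1664 to 1837 lower. Over the 109 measured genes of the 9 lists, 11 higher and 26 lower became 7 to 10 higher and 16 to 18 lower when single samples were left out. At the 0.05 threshold, with all samples kept, the lowest counts were 9 higher and 18 lower, under the replicate block. The highest were 16 higher and 35 lower, with a trended robust prior. List counts at the 0.01 threshold are not given here. The smallest adjusted p of an ESCRT gene was 0.0106 (Vps4a), so no gene of that list passes 0.01. The block left 5 ESCRT genes and 3 genes of the list of thioredoxins, peroxiredoxins and glutaredoxins lower, in place of 9 and 6. With the replicate number as a block 4071 genes passed, 2097 higher and 1974 lower, and the Arrdc3 difference was 1.99 ± 0.08 (SE). The block ended the calls of Nedd4, Slc2a9, Zfp36 and Ehmt1 (adjusted p = 0.0512 to 0.0795). Deviations of same-numbered samples correlated at 0.06, 0.11 and -0.02. Samples numbered 1 and 2 correlated best with their own number, and those numbered 3 did not. The numbers were not taken to pair the samples in the main fit. A trended robust prior ended the call of Stpg4 (adjusted p = 0.0698).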
